A study of Ovis aries with 23 samples.

Results

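Lung tissue of the 7 sheep observed for 12 h was compared between 2 injury models of acute respiratory distress syndrome (ARDS), as 3 animals of phenotype 2 (Ph2, hyperinflammatory) against 4 of phenotype 1 (Ph1, hypoinflammatory). These 7 animals were chosen by their labelled observation time out of 23, of which 8 were observed for 6 h and 8 for 24 h. All were female Merino-Dorset crossbreed sheep, anesthetized and mechanically ventilated. The labels give no age for single animals, and the study's methods give that of all 23 only as a range of a few years. Ph1 animals (labelled OA) received oleic acid intravenously until gas exchange fell below a set limit, and Ph2 animals (labelled LPS_IV) received the same oleic acid and then an intravenous infusion of E. coli lipopolysaccharide (LPS). Every animal therefore carried the oleic acid injury, and no uninjured lung is among the groups. Per the study's methods, RNA from 3 lobes of each right lung was pooled, so each animal gave 1 value per feature.

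The Ph1 animals C17, C18, C19 and C21 and the Ph2 animal G34 came from the first trial (CELTIC). The Ph2 animals SD4 and SD13 came from the second trial (STARDUST), which used another flock of the same breed. Since no Ph1 animal of STARDUST was observed for 12 h, trial and phenotype overlap in SD4 and SD13, and only G34 can be compared with Ph1 within a trial. The animals were measured with a custom NanoString nCounter assay, which counts probe pairs hybridized to RNA without amplification. The deposited values of 20 features are log2 normalized counts. Converted back to whole counts, the 12 h animals held 14122 to 20567 counts each over the 20 features. This total lay between 14122 and 19167 in Ph1 and between 14639 and 20567 in Ph2. The table lists features by tag, and 14 of them were named by their place in the probe table of the supplement, so each gene name below rests on that order. The panel holds no set of genes that define lung tissue, so the labelled tissue could not be checked against markers. The RNA integrity numbers in the supplement, averaged over the lobes, were higher in SD4 and SD13 than in every Ph1 animal, and in G34 than in every Ph1 animal but C21. The upper lobes of C19 and SD4 had the lowest numbers of these animals. Both were below the limit that the methods give for samples before pooling, so whether these lobes entered the pools is not known. The part of RNA integrity in the differences below was not tested.

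In ARDS, neutrophils and macrophages enter the injured lung, and neutrophils release stored granule proteins. LPS, a part of the wall of Gram-negative bacteria, is sensed by Toll-like receptor 4 and activates NF-κB in myeloid, endothelial and epithelial cells. The 14 markers were taken from blood leukocytes of patients, in whom 9 were reported higher in the hyperinflammatory subphenotype (P2) and 5 higher in the hypoinflammatory one (P1). In whole tissue, fewer cells of a type and less RNA per cell cannot be told apart.

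At 12 h, OLFM4, GPR84, TCN1 and LCN2 were higher in every Ph2 animal than in every Ph1 animal, and ADGRE3 and SULF2 were lower in every Ph2 animal than in every Ph1 animal. These 6 features were 30% of the 20 tested, 20% without overlap in the higher and 10% in the lower direction. All 6 were among the 14 markers. For each of them an exact Mann-Whitney U test, two-sided, gave p = 0.0571, the smallest p that 4 against 3 animals allow, and an adjusted p of 0.190 with Benjamini-Hochberg adjustment over the 20 features. None of the 20 features (0%) had an exact p below 0.05, adjusted or not, so the separation of these 6 did not pass the test. In the other 8 markers the groups overlapped, with exact p-values between 0.114 and 1.

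A limma model of the 6 groups of phenotype and time point, which takes the spread from all 23 animals, called 0 features (0%) at an adjusted p below 0.05. Before adjustment 2 features (10%) passed 0.05, OLFM4 and the low feature T007 (limma adjusted p = 0.126 for both). When limma was run on the 7 animals of 12 h alone, the adjusted p was 0.0216 for OLFM4 and 0.0355 for GPR84, and no other feature was below 0.05. The lists of markers can be set against all features. The 9 markers of the human P2 list had a median difference of 0.60 on the log2 scale (Ph2 minus Ph1), with 8 higher in Ph2 by mean. The 5 markers of the P1 list had a median of -0.59, with 5 lower. Over all 20 features the median was 0.18, with 11 higher and 9 lower (55% higher). These lists were chosen from human results and are described here without a test.

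**Figure D1:**
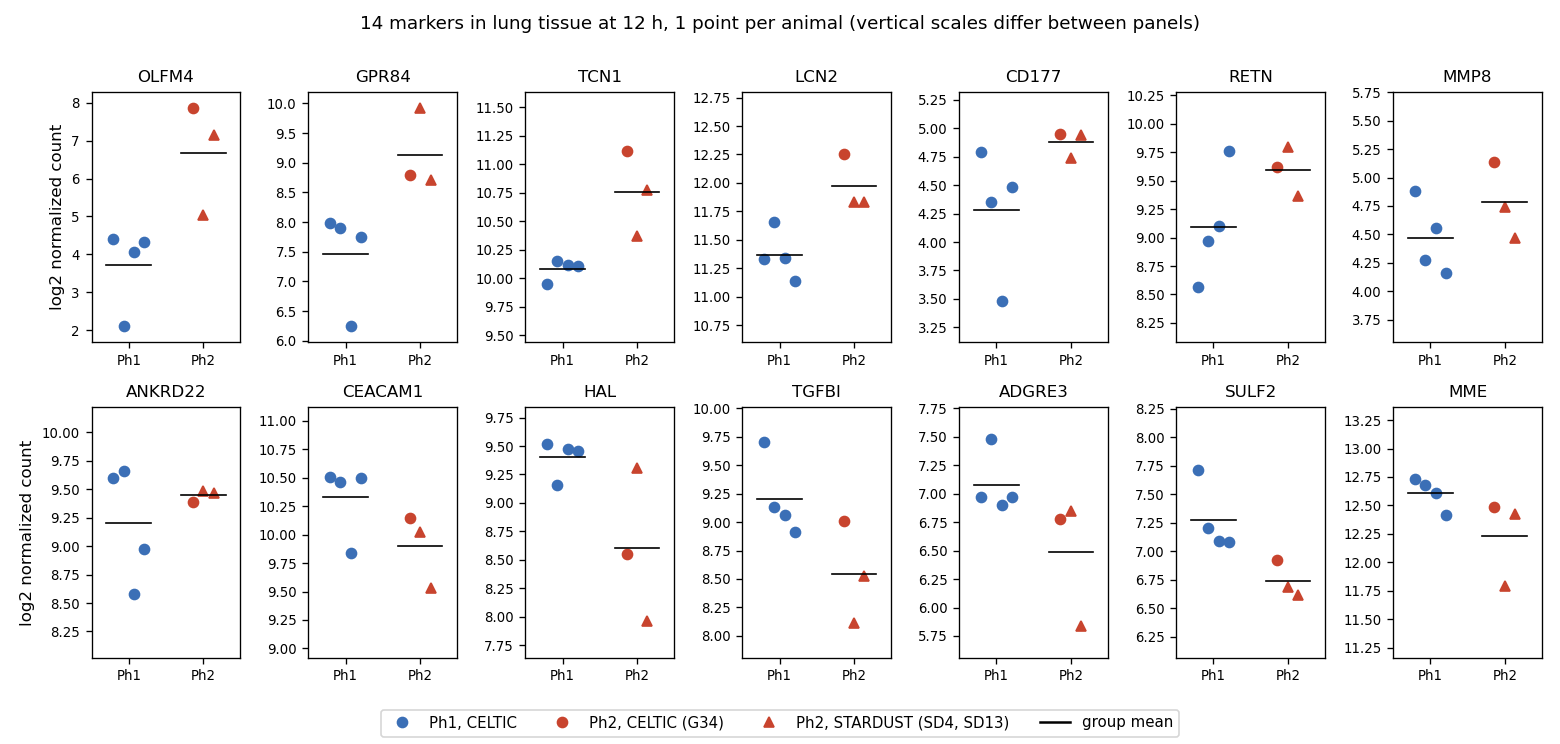
Log2 normalized count of the 14 markers in lung tissue at 12 h, 1 point per animal, with Ph1 and Ph2 on the horizontal axis, circles for CELTIC, triangles for STARDUST and a line at the group mean. In OLFM4, GPR84, TCN1 and LCN2 the 3 Ph2 animals lie above the 4 Ph1 animals, and in ADGRE3 and SULF2 below them.

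The separated values count probe pairs, each made of a reporter probe and a capture probe. The capture probes of these 6 markers are shown. In each, the lower-case stretch of 25 bases is the tail shared by all capture probes of the assay, and the capitals mark the gene-specific 50 bases, complementary to the sheep mRNA. Sequences are written 5′ to 3′ and come from the probe table of the supplement.
OLFM4: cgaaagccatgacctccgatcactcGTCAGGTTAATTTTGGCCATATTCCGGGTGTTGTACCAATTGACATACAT
GPR84: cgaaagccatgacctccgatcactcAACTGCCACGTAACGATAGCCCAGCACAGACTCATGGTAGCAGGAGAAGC
TCN1: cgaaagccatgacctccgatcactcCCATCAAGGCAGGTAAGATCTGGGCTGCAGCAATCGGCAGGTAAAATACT
LCN2: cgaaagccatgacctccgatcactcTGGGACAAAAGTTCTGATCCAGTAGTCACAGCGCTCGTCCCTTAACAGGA
ADGRE3: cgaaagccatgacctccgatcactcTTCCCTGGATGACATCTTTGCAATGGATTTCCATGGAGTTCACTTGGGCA
SULF2: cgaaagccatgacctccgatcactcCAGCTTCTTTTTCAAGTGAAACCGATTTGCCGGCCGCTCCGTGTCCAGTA

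The 6 markers of granule and secreted proteins were all higher in Ph2 by mean, with a median difference of 0.60, and 3 of them did not overlap between the groups. Over all 20 features, 55% were higher by mean and 20% higher without overlap. All 6 belong to the human P2 list, so their shared direction repeats that of the list. OLFM4, a glycoprotein of the specific granules of a subset of neutrophils, was 4.40 in C17, 2.11 in C18, 4.07 in C21 and 4.33 in C19. In Ph2 it was 7.85 in G34, 5.04 in SD4 and 7.15 in SD13. Even SD4, the lowest Ph2 animal, lay 0.64 above the highest Ph1 animal. The Ph2 mean was 6.68 ± 1.46 (SD, n = 3) and the Ph1 mean 3.73 ± 1.09 (SD, n = 4), so Ph2 was higher by 2.96 or 7.76-fold (limma 95% interval 0.70 to 5.21). OLFM4 had the widest range of the 14 markers in both groups. Without G34 the difference was 2.37 (limma 95% interval -0.21 to 4.95), and without SD4 it was 3.78 (1.28 to 6.27).

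TCN1, which encodes the cobalamin-binding protein haptocorrin of neutrophil granules, was 9.95 in C17, 10.15 in C18, 10.11 in C21 and 10.10 in C19. In Ph2 it was 11.12 in G34, 10.37 in SD4 and 10.77 in SD13. The Ph1 animals lay close together in this gene (SD 0.089), and the Ph2 animals were spread more widely above them (SD 0.37). The difference was 0.68 or 1.60-fold (limma 95% interval -0.45 to 1.80). LCN2, an iron-siderophore-binding protein made by neutrophils and injured epithelium, was 11.33 in C17, 11.65 in C18, 11.34 in C21 and 11.14 in C19, against 12.26 in G34, 11.84 in SD4 and 11.83 in SD13. Its groups were 0.18 apart at the nearest animals, and the difference was 0.61 or 1.52-fold (limma 95% interval -0.33 to 1.55). After centring each sheep at its own marker median, the groups overlapped in TCN1 and LCN2. LCN2 overlapped also when the mean of T036 to T039 served as the centre.

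CD177, a surface glycoprotein of a neutrophil subset, was 4.79 in C17, 4.35 in C18, 3.48 in C21 and 4.49 in C19, against 4.95 in G34, 4.74 in SD4 and 4.94 in SD13. Only C17 reached the range of Ph2, and the difference was 0.60 (exact p = 0.114, limma 95% interval -0.29 to 1.49). The difference fell to 0.33 without C21. RETN, which encodes the secreted protein resistin, was 8.56 in C17, 8.97 in C18, 9.10 in C21 and 9.76 in C19, against 9.62 in G34, 9.79 in SD4 and 9.36 in SD13. C19 lay among the Ph2 animals, and the difference of 0.50 was no larger than the SD of 0.50 in Ph1 (exact p = 0.229). It was 0.32 without C17 and 0.72 without C19. MMP8, the neutrophil collagenase, was 4.88 in C17, 4.28 in C18, 4.55 in C21 and 4.16 in C19, against 5.14 in G34, 4.74 in SD4 and 4.47 in SD13. Its groups overlapped over most of their range, and the difference of 0.31 was smaller than the SD of 0.34 in Ph2 and of 0.32 in Ph1 (exact p = 0.400).

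Of the 4 receptor and signalling genes, GPR84 and ANKRD22 were higher in Ph2 by mean and ADGRE3 and CEACAM1 were lower. GPR84, a receptor for medium-chain fatty acids on myeloid cells, was 7.98 in C17, 7.90 in C18, 6.25 in C21 and 7.74 in C19. In Ph2 it was 8.79 in G34, 9.92 in SD4 and 8.70 in SD13. The nearest animals of the groups, C17 and SD13, were 0.72 apart, the widest gap of the 6 separated markers. The Ph2 mean was 9.14 ± 0.68 (SD, n = 3) and the Ph1 mean 7.47 ± 0.82 (SD, n = 4), so Ph2 was higher by 1.67 or 3.18-fold (limma 95% interval -0.07 to 3.41). C21 and SD4 lay apart from their own groups, and the difference of the group medians, which these animals touch less, was 0.97. ADGRE3, an adhesion G protein-coupled receptor of myeloid cells, was 6.97 in C17, 7.48 in C18, 6.90 in C21 and 6.97 in C19, against 6.78 in G34, 6.85 in SD4 and 5.84 in SD13. SD4 and C21 were only 0.052 apart, and the difference of -0.59 fell in size to -0.27 without SD13 (limma 95% interval with all animals -1.41 to 0.23). The groups overlapped in ADGRE3 when each animal was centred on the mean of T036 to T039.

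CEACAM1, an adhesion molecule of epithelium, endothelium and leukocytes, was 10.51 in C17, 10.47 in C18, 9.84 in C21 and 10.50 in C19, against 10.14 in G34, 10.03 in SD4 and 9.53 in SD13. C21 lay inside the range of the Ph2 animals and the other Ph1 animals lay above it. The difference was -0.43 (exact p = 0.229, limma 95% interval -0.97 to 0.11), and with 1 animal left out it ranged from -0.24 without SD13 to -0.59 without C21 (limma adjusted p = 0.644 and 0.310). Within CELTIC, for G34 alone, it was -0.18. This marker belongs to the human P2 list and was the single one of the 9 that was lower in Ph2 by mean. ANKRD22, an ankyrin repeat protein, was 9.60 in C17, 9.66 in C18, 8.58 in C21 and 8.98 in C19, against 9.39 in G34, 9.49 in SD4 and 9.47 in SD13. The 3 Ph2 animals lay close together (SD 0.050) and inside the range of Ph1, with a difference of 0.24 (exact p = 1) that fell to 0.037 without C21.

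The 4 genes of peptidase, matrix and metabolic proteins were all lower in Ph2 by mean, with a median difference of -0.60, and 1 of them did not overlap between the groups. Over all 20 features, 9 were lower by mean and 10% lower without overlap. All 4 belong to the human P1 list, so their shared direction repeats that of the list. SULF2, which removes sulfate groups from heparan sulfate in the matrix, was 7.71 in C17, 7.20 in C18, 7.09 in C21 and 7.08 in C19, against 6.92 in G34, 6.68 in SD4 and 6.62 in SD13. All Ph2 animals lay below all Ph1 animals, also with both centrings. The Ph2 mean was 6.74 ± 0.16 (SD, n = 3) and the Ph1 mean 7.27 ± 0.30 (SD, n = 4), which gives a difference of -0.53, or 1.45-fold lower in Ph2 (limma 95% interval -1.14 to 0.07). HAL, the first enzyme of histidine breakdown, was 9.51 in C17, 9.16 in C18, 9.48 in C21 and 9.46 in C19, against 8.55 in G34, 9.30 in SD4 and 7.97 in SD13. SD4 lay above C18 and the other Ph2 animals below all of Ph1. The difference of HAL was -0.79 (exact p = 0.114, limma 95% interval -2.22 to 0.63), and -0.47 without SD13.

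TGFBI, a secreted matrix protein induced by transforming growth factor beta, was 9.71 in C17, 9.13 in C18, 9.06 in C21 and 8.92 in C19, against 9.01 in G34, 8.11 in SD4 and 8.52 in SD13. Only G34 reached the range of Ph1, and the difference was -0.66 (exact p = 0.114, limma 95% interval -1.60 to 0.29). MME, the membrane peptidase neprilysin, was 12.73 in C17, 12.68 in C18, 12.61 in C21 and 12.42 in C19, against 12.49 in G34, 11.79 in SD4 and 12.43 in SD13. G34 and SD13 lay beside C19 at the lower end of Ph1, and SD4 lay well below. The difference was -0.37 (exact p = 0.229, limma 95% interval -1.21 to 0.47) and -0.15 without SD4.

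G34, the Ph2 animal from the trial of the Ph1 animals, was set beside SD4 and SD13. Relative to the mean of the 4 Ph1 animals, G34, SD4 and SD13 each had 13 of 14 markers on the side of the human lists, 8 of the 9 P2 markers above and 5 of the 5 P1 markers below, and in each CEACAM1 was the exception. For the Ph1 animals, each set against the mean of the other 3, this number lay between 7 and 10. The number goes by sign alone, and MMP8 in SD13, at 4.471 on 26 counts, was nearly equal to the Ph1 mean of 4.468. G34 lay above all Ph1 animals in 6 markers and below all of them in 3, SD4 in 5 and 4, and SD13 in 5 and 5. Over all 20 features, G34 lay above all Ph1 animals in 45% and below in 15%, SD4 in 25% and 40%, and SD13 in 35% and 40%, so unnamed features lay outside the Ph1 range too. With 1 against 4 animals no exact two-sided p below 0.400 can be had, so the comparison within CELTIC is a description.

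The size of the differences varied between G34 and the STARDUST animals. G34 was the highest Ph2 animal in 5 of the 6 granule and secreted markers, where RETN was the exception. It was the highest in 3 of the 5 P1 markers and in 9 of all 14. Among the unnamed features G34 was also the highest in T007, T011 and T039, and not in T036, T037 and T038. In G34, T007 and T011 rest on 5 and 13 counts and T039 on 890. Before scaling, G34 had fewer counts than SD4 and SD13 in MMP8 (25 against 34 and 26) and CD177 (22 against 34 and 36). The same held for LCN2 (3475 against 4656 and 4275) and TCN1 (1581 against 1690 and 2049). Its total was 14639 counts, against 20369 in SD4 and 20567 in SD13. The height of G34 in these markers therefore rests on the scaling. On the normalized scale, the difference of G34 from the Ph1 mean was 4.12 for OLFM4, 1.04 for TCN1, 0.89 for LCN2 and 0.67 for MMP8. For the mean of SD4 and SD13 it was 2.37, 0.49, 0.47 and 0.14. For GPR84 the order turned, with 1.33 in G34 and 1.84 in SD4 and SD13. In the 5 P1 markers the median difference was -0.30 in G34, -0.59 in SD4 and -0.68 in SD13. G34 was -0.20 from Ph1 in TGFBI and -0.12 in MME, against -0.89 and -0.50 for SD4 and SD13, while for HAL both were similar, at -0.85 and -0.77. The mean of the unnamed features T036 to T039 was 9.25 in G34, 8.76 in SD4 and 9.15 in SD13, and between 8.84 and 8.92 in the Ph1 animals. The part of trial, flock or normalization in these differences was not tested.

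**Figure D2:**
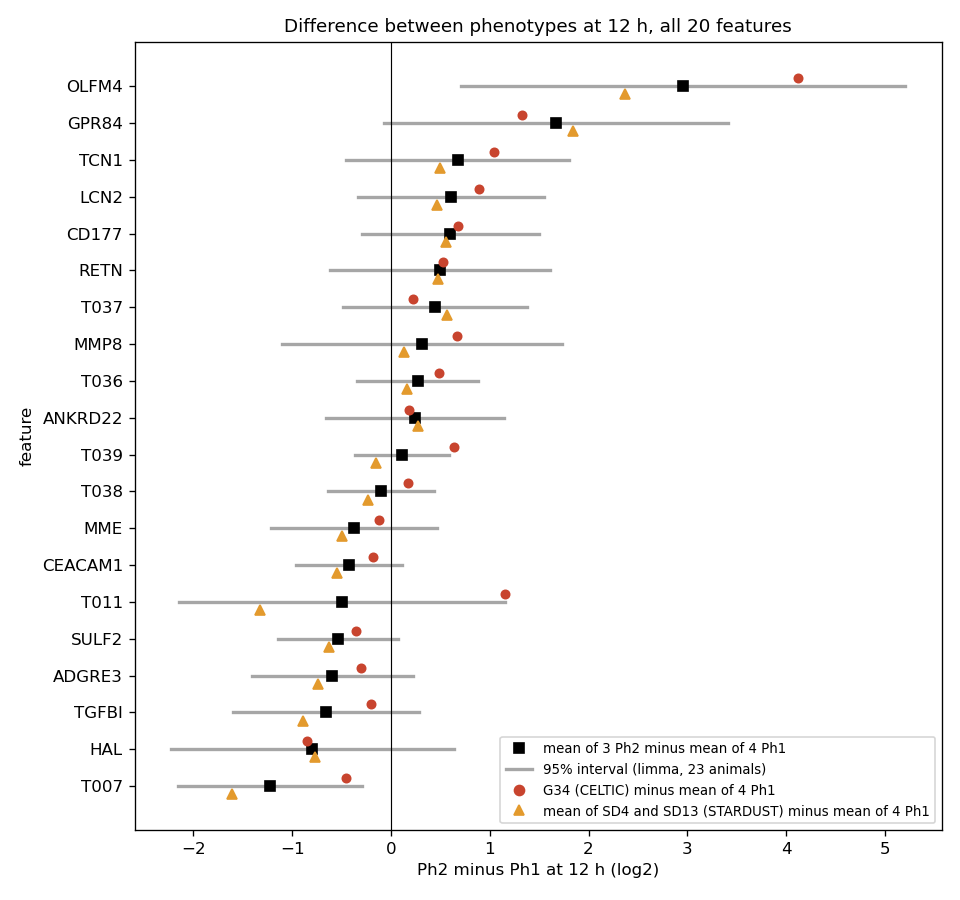
Difference between Ph2 and Ph1 at 12 h on the log2 scale (horizontal axis) for all 20 features (vertical axis), as the mean of 3 Ph2 minus 4 Ph1 animals (squares), with the limma 95% interval (grey lines), for G34 alone (circles) and for the mean of SD4 and SD13 (triangles). For all 14 markers the circle and the triangle lie on the same side of 0, and the interval excludes 0 for OLFM4 and T007 only.

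With trial as a block in limma over all 23 animals, the 12 h difference of OLFM4 was 3.25 (95% interval 0.40 to 6.11, adjusted p = 0.552), and 1 feature of 20 (5%) had an unadjusted p below 0.05. The difference was reduced from 1.67 to 0.49 for GPR84 (95% interval -1.51 to 2.49), from 0.61 to 0.034 for LCN2, from 0.50 to 0.21 for RETN, from -0.59 to -0.26 for ADGRE3 and from -0.79 to -0.12 for HAL. In contrast it rose in size from 0.31 to 0.86 for MMP8 and from -0.37 to -0.69 for MME. No marker changed sign. The trial term, STARDUST minus CELTIC, was 1.77 for GPR84 (95% interval 0.019 to 3.52) and 0.86 for LCN2 (-0.10 to 1.83). It is estimated from the groups that hold animals of both trials. These are the Ph1 animals of 6 h, with 1 of STARDUST, and the Ph2 animals of 12 h themselves. At 12 h, G34 minus the mean of SD4 and SD13 was -0.52 for GPR84, on the side of the term. It was 0.42 for LCN2, against the term, and -0.086 for HAL, also against its term of -1.01. For LCN2 and HAL the sign of the term therefore rests on the 1 STARDUST animal of 6 h. G34, as 1 animal, was above all Ph1 animals of its own trial in GPR84 and LCN2, as it was in 45% of the 20 features. The part of trial in these differences was not tested by this.

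Low counts limited several markers. OLFM4 rested on 23, 4, 15 and 18 counts in C17, C18, C21 and C19, and on 164, 42 and 167 counts in G34, SD4 and SD13. For C18, the exact Poisson 95% interval of the 4 counts was 1.09 to 10.2 counts, that is 0.23 to 3.46 on the log2 scale, below the values of 4.07 to 4.40 in the other Ph1 animals, whose own intervals begin at 3.23. In C18 the feature T007 had 9 counts. When low values were raised to the higher of T007 and T011 in the same animal, OLFM4 differed by 2.66 and still did not overlap. CD177 had between 10 and 36 counts and MMP8 between 16 and 34, against 68 or more for GPR84, 67 or more for ADGRE3 and 86 or more for SULF2. These intervals cover counting error only.

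**Figure D3:**
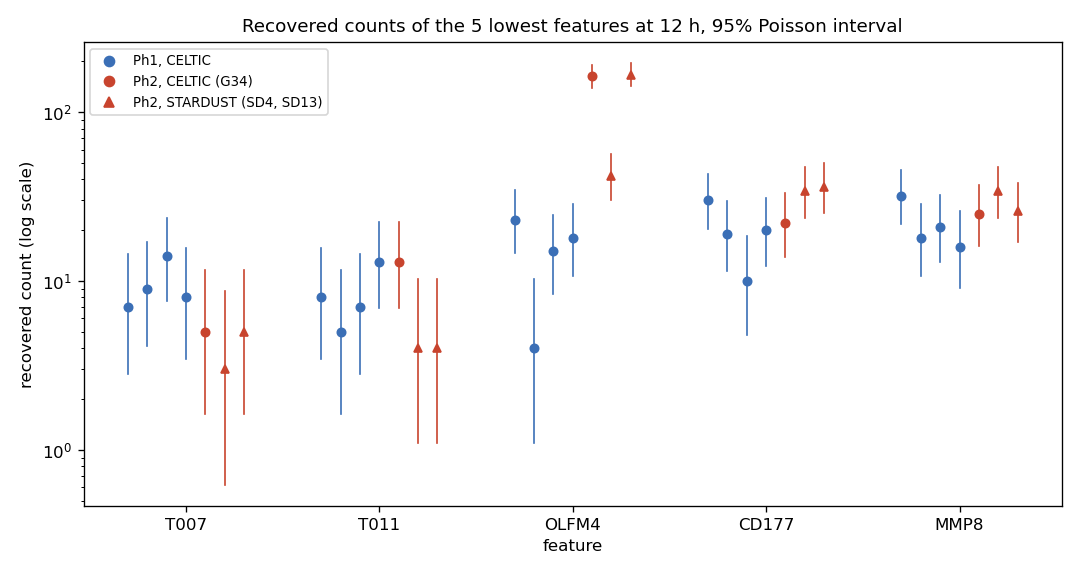
Recovered counts (vertical axis, log scale) of the 5 features with the lowest counts at 12 h, with 1 point per animal and its exact 95% Poisson interval, blue for Ph1 and red for Ph2, circles for CELTIC and triangles for STARDUST. OLFM4 in the Ph2 animals, at 42 to 167 counts, lies above T007 and T011, which have 3 to 14 counts, while CD177 and MMP8 lie nearer to them.

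The other 6 features took no marker's name. By the order of the probe table T007 would be ZDHHC19 and T011 would be RBP7. The authors excluded RBP7 and a gene of the ZDHHC family as below the detection limit, and the study's text and its probe table give that gene different numbers. They had 3 to 14 and 4 to 13 counts. T007 was 2.69, 3.28, 3.97 and 3.16 in C17, C18, C21 and C19, against 2.82, 1.24 and 2.09 in G34, SD4 and SD13, a difference of -1.23 (limma 95% interval -2.16 to -0.29, adjusted p = 0.126). These values rest on 14 counts or fewer per animal. T036 to T039 stand where the housekeeping genes begin in the probe table, but the table holds 6 housekeeping genes and only 4 such features are listed, so they were not named. None of them separated the groups, and their differences were 0.27, 0.45, -0.10 and 0.11. The mean of any 3 of them varied over the 23 animals with an SD of 0.22 to 0.27, so no 3 of them behave as a set whose mean was fixed by the normalization. The median of the 14 markers differed between Ph2 and Ph1 by 0.0049, and the mean of T036 to T039 by 0.18, the higher in Ph2. Centring on T036 to T039 therefore lowers every difference by 0.18, and no marker changed sign with it.

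The 12 h comparison was set against those at 6 h (5 Ph1 and 3 Ph2 animals) and at 24 h (5 Ph1 and 3 Ph2 animals). At each of these times 0 of 20 features (0%) separated the groups without overlap, with 1 more Ph1 animal than at 12 h. In limma, 2 features (10%) at 6 h and 1 (5%) at 24 h had an unadjusted p below 0.05 and none an adjusted p below 0.05. For LCN2 the earlier difference, at 6 h, was -0.14, against 0.61 at 12 h, and at 24 h it was -0.19. That of TCN1 was -0.55, 0.68 and 0.69, that of SULF2 -0.30, -0.53 and -0.045, and that of ADGRE3 -0.79, -0.59 and 0.17. Without a trial block, mean differences were thus positive at 12 h alone for LCN2 and at 12 and 24 h for TCN1. They were negative throughout for SULF2, and negative at 6 and 12 h but not at 24 h for ADGRE3. With trial as a block, LCN2 differed by 0.036 in the 6 h animals and by 0.034 in the 12 h animals. Its contrast of 12 h against 6 h went from 0.75 to -0.0021. The signs for TCN1, SULF2 and ADGRE3 stayed the same with the block.

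A test of the 12 h difference against the mean of those at 6 and 24 h called 0 features (0%) in limma (lowest adjusted p = 0.736), and before adjustment 1 (5%) passed 0.05, T007. For OLFM4 this contrast was 2.18 (95% interval -0.54 to 4.89). Against 24 h alone, where OLFM4 was lower in Ph2 by mean, it was 3.70 with a 95% interval of 0.59 to 6.82 that excludes 0, while its adjusted p over the 20 features was 0.441. Against 6 h alone the contrast of OLFM4 was 0.65 (adjusted p = 0.986). For LCN2 the contrast with both times was 0.77 (95% interval -0.37 to 1.91), for TCN1 0.60 (-0.75 to 1.96), for GPR84 0.22 (-1.88 to 2.33), for ADGRE3 -0.28 (-1.27 to 0.71) and for SULF2 -0.36 (-1.09 to 0.37). The intervals of the contrast with both times include 0 for these 6 markers. With trial as a block, this contrast was -1.13 for GPR84 and 0.10 for ADGRE3, so both changed sign. It was 2.52 for OLFM4, 0.11 for LCN2, 0.82 for TCN1 and -0.21 for SULF2. The intervals with the block include 0 as well. All animals at 24 h came from STARDUST. At 12 h all Ph1 animals came from CELTIC, while the Ph2 animals SD4 and SD13 came from STARDUST. Trial and phenotype thus overlap in the 12 h difference, which enters the contrasts with 6 h, with 24 h and with both. In none of these contrasts can time and trial be told apart. With trial as a block, the contrast of OLFM4 with 24 h was 4.00 (95% interval 0.39 to 7.61, limma adjusted p = 0.633). The trial term rests on the few groups named above.

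**Figure D4:**
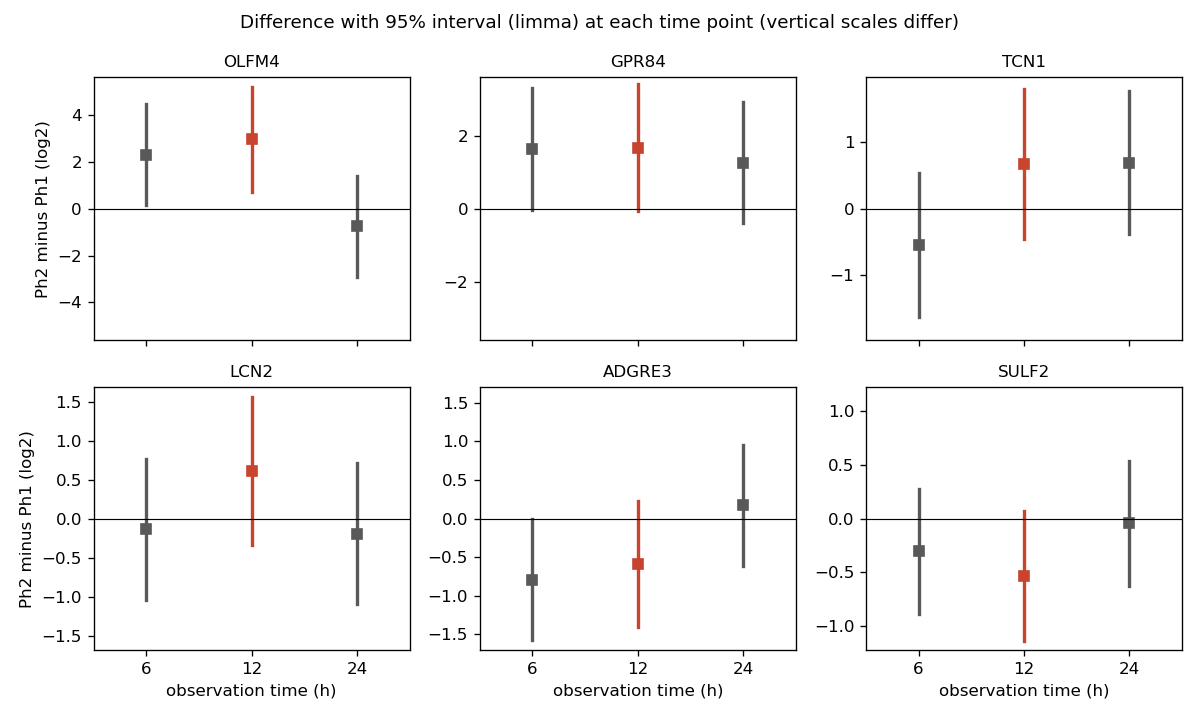
Difference between Ph2 and Ph1 on the log2 scale (vertical axis) with its limma 95% interval at 6, 12 and 24 h (horizontal axis) for the 6 markers whose groups did not overlap at 12 h, with 12 h in red. OLFM4 is at 2.31, 2.96 and -0.75, GPR84 is positive at each time, and the intervals of neighbouring times overlap in every panel.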

How the data were processed

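Lung RNA of 23 sheep was measured on a NanoString nCounter SPRINT profiler, and the 7 animals of 12 h were compared. Per the study's methods, the authors subtracted a background from the raw counts (mean of the negative controls plus 2 SD), scaled to 3 housekeeping genes (TBP, RPL19, POLR2A, by geometric mean), and deposited log2 normalized counts of 20 features. The normalizing genes can therefore move every value of an animal, while a subtracted background weighs most on features with low counts. Once unlogged, each animal's values were multiples of 1 factor (within 0.0001 of whole numbers), from which counts were recovered, 14122 to 20567 per animal at 12 h. Whether they are raw or background-corrected counts cannot be read from them.

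Features in tag order took the names of the leading genes of the supplement's probe table, of which those at places 7 and 11 keep their tag. All 14 marker symbols are in the RefSeq table of the sheep assembly ARS-UI_Ramb_v3.0. All 14 markers are named, and the value of each of the 7 animals is given. The markers, lists and tests were chosen with earlier results of these data known.

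The test was the Mann-Whitney U test of the study's methods, in its exact and two-sided form, and limma (lmFit and eBayes) on 6 group means of 23 animals, with Benjamini-Hochberg adjustment over 20 features. The threshold was 0.05. Tests were first run on simulated data. The alternatives were medians, unlogged means, both centrings, raised low values, each trial's Ph2 animals alone, trial as a block and leaving out each animal. RNA integrity entered no model. Python 3.11.15 with numpy 2.4.6, scipy 1.17.1, pandas 2.3.3 and matplotlib 3.10.9 were run beside limma 3.58.1 in R 4.3.3.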

Additional observations from a re-analysis of the deposited data

Results flagged for a closer look

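In 6 of 20 features, 1 of the 4 Ph1 animals had a gap to the other 3 above Dixon's limit for 4 samples. Chance alone would give this in about 1 group of 20. C18 was the lowest for OLFM4, at 2.11 where the other Ph1 animals were at 4.07 to 4.40. For ADGRE3 it was the highest, at 7.48 against 6.90 to 6.97, and for HAL the lowest, at 9.16 against 9.46 to 9.51. C21 had GPR84 at 6.25 (others 7.74 to 7.98), CEACAM1 at 9.84 (others 10.47 to 10.51) and the unnamed feature T037 at 10.41 (others 9.67 to 9.71). OLFM4 in C18 rests on 4 counts, and the others on 68 or more. The ratio was not computed for the 3 Ph2 animals, so animals that stand apart in Ph2 were not screened.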

How the results depend on the processing

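No paired analysis was possible because no sheep is in both groups and the labels carry no replicate numbers. The number of features without overlap was 6, and 5 to 7 with both centrings and raised low values. With each animal left out it was 6 to 9, but smaller groups are more easily without overlap, so these counts are not comparable with 6. OLFM4, GPR84 and SULF2 did not overlap with either centring, while HAL (marker median) and MME, TGFBI and T007 (T036 to T039) then separated too. The number of features with a limma adjusted p below 0.05 was 0, 2 with the 12 h animals only and 2 at an unadjusted p; with each animal left out it stayed at 0, and 1 to 3 features had an unadjusted p below 0.05. The number of features whose 12 h difference departed from 6 and 24 h was 0, and 1 at an unadjusted p. The 12 h differences of the 14 markers kept their direction under all alternatives. T011 changed sign among CELTIC animals (1.16) and with trial as a block (0.31). T038 did so with medians (0.032), among CELTIC animals (0.17) and with the block (0.15), and lay between -0.28 and 0.17 with each animal left out, positive without SD4. T039 did so when centred on T036 to T039 (-0.069) and with the Ph2 animals of STARDUST only (-0.15), and lay between -0.15 and 0.33 with each animal left out, negative without G34. The cause was not tested. Lowest counts of 4 in OLFM4, 10 in CD177 and 16 in MMP8, and 3 to 4 animals per group limit the precision.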
